A study of Mus musculus with 12 samples.

Results

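The liver makes cholesterol, takes it up, stores it as esters and secretes it, and 31 genes that carry out these steps or control them are described here in germ-free mice given growth hormone (GH). They were chosen by gene symbol from the 38087 rows of the deposited count table. Of these, 30 were matched by the symbol in the table and 1, Msmo1, by its Ensembl identifier, since the table lists it under an older symbol. They comprised 18 enzymes of synthesis, 4 genes that regulate the transcription factor SREBP2, and 9 genes of uptake, transport, storage and export. All 31 passed the filter on low counts.

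The samples were livers of male C57BL/6j mice aged 13 to 16 weeks and raised without microorganisms, profiled by sequencing of ribosomal RNA-depleted total RNA. The GH group, of 6 libraries, had received 50 µg of recombinant human GH per mouse under the skin. The PBS group, also of 6, had received phosphate-buffered saline. Each mouse was injected at ZT 2 and again at ZT 14 on each of 5 days, and livers were taken at ZT 2 (ZT, hours after lights on). All mice of both groups were germ-free, so no comparison with colonised mice can be made, and human GH also binds the mouse prolactin receptor. The question is how injected GH changes liver expression in such males.

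As background, cholesterol is built from acetyl-CoA. Enzymes of the mevalonate arm make farnesyl pyrophosphate, and those of the sterol arm join it into squalene, close the rings and trim lanosterol to cholesterol. When sterols in the endoplasmic reticulum are low, SCAP carries SREBP2 to the Golgi, where proteases free its active part, which switches on most of these enzymes. INSIG proteins hold SCAP back when sterols are high. Excess sterol activates the nuclear receptor LXR, which induces the exporters ABCA1, ABCG5 and ABCG8.

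Libraries held 19523104 to 23278931 counts. Members had 3325 to 150778 counts summed over the 12 libraries, and the lowest count in any library was 30 (Mvd, GH replicate 6), so counting error was small beside the spread between livers. Values are CPM (counts relative to the scaled library size), and fold changes are log2 of GH over PBS from edgeR's quasi-likelihood test, with p adjusted by Benjamini-Hochberg over all 14235 genes tested and a threshold of 0.05. Whether each numbered sample is a separate animal is not said in the labels, so a p-value reflects only how far these samples varied, which may be technical. In this report, a liver means the sample of a single library, and n counts libraries. GH replicate 6 stood apart from the other GH libraries in many of the values below. Its effect is given where leaving it out changed a call, and for the members whose log2 fold change it moved most.

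Of the 31 genes 2 passed the test, against 4.79% of all genes, and 22 had a log2 fold change below 0, against 49.9%. Enzymes of cholesterol synthesis were lower in GH livers in 17 of 18 cases, but few of the differences exceeded the spread between livers. Of the 18, 2 fell (Hsd17b7 and Idi1) and 0 rose. Among all genes tested 2.52% fell and 2.27% rose, and 2 of 18 genes are too few to set against that share. In bulk tissue, fewer cells of a type and less RNA per cell cannot be told apart. The median log2 fold change of the 18 was -0.40, against 0.00 for all genes. At an unadjusted p under 0.05, 11 of the 18 were lower and 0 higher, against 9.83% lower and 9.15% higher among all genes. Without GH replicate 6 the median was -0.26, 3 of the 18 fell (Idi1, Cyp51 and Hsd17b7) and 0 rose, against 2.75% and 2.81% of all genes, and 16 of 18 were below 0. In DESeq2 3 of the 18 fell and 0 rose, against 3.76% and 3.45% of all genes. Without GH replicate 6 and PBS replicate 5, which also stood apart, 4 fell (those 3 and Tm7sf2) and 0 rose, against 3.54% and 3.64%.

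**Figure D1:**
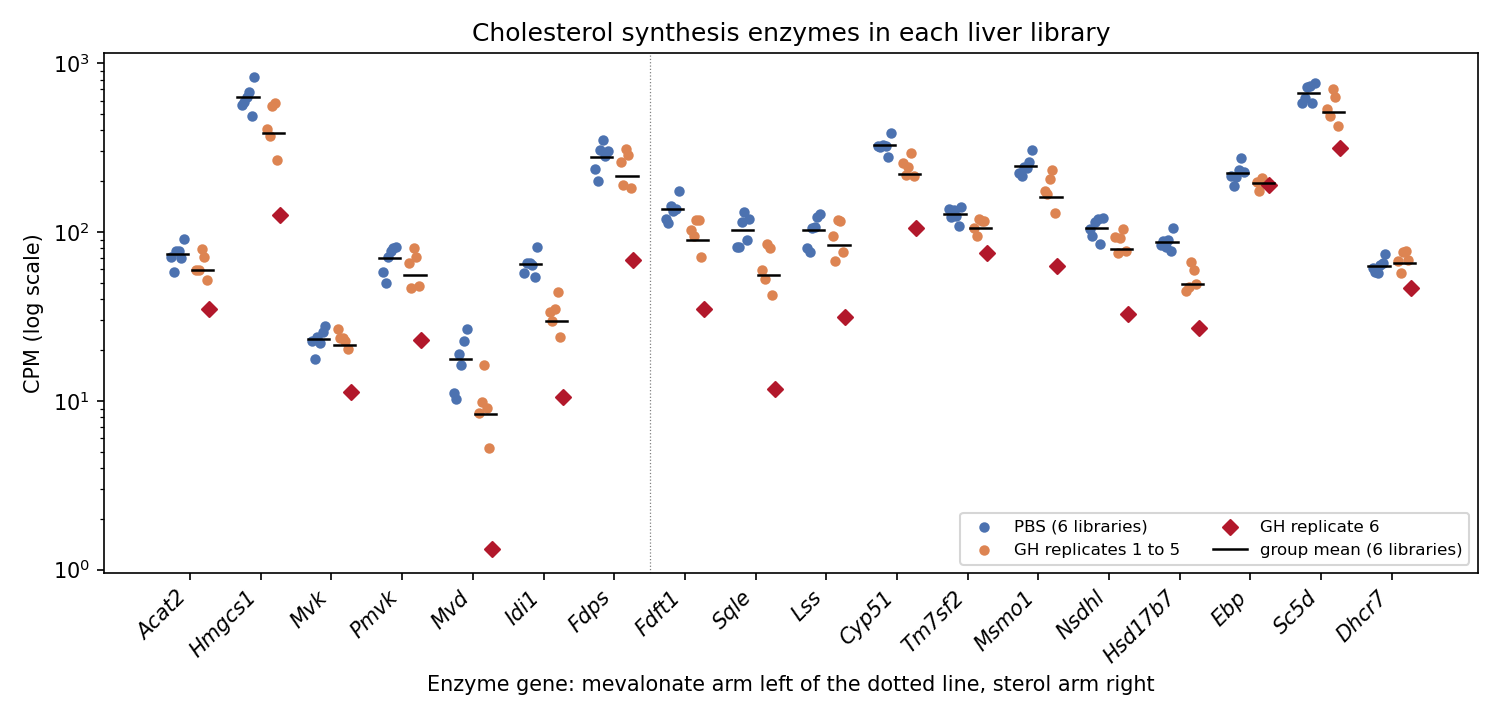
CPM on a log scale of the 18 synthesis enzymes in each library, in pathway order, with PBS in blue, GH replicates 1 to 5 in orange, GH replicate 6 as a red diamond and black lines at the means of 6 libraries. The groups are separate for Idi1 and Hsd17b7, and GH replicate 6 is the lowest GH library for 17 of the 18 genes.

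In the mevalonate arm, Idi1 (chromosome 13, 8885501 to 8892451 in mm10, plus strand) encodes isopentenyl diphosphate isomerase, which interconverts the C5 building blocks of all isoprenoids. Its lowest, median and highest values were 53.9, 64.8 and 81.1 CPM in PBS and 10.5, 31.6 and 44.2 CPM in GH. All 6 GH livers lay below the lowest PBS liver, a separation seen in 1.72% of all genes tested. Idi1 fell to 45.6% of PBS, a log2 fold change of -1.13 with an SE of 0.27 (n = 6 per group, edgeR adjusted p = 0.0360). The 5 GH livers other than replicate 6 ran from 23.9 to 44.2 CPM, and without that replicate the log2 fold change was -0.96 ± 0.14 (adjusted p = 0.00162). With 1 library left out the call held only without PBS replicate 5 (adjusted p = 0.0450), GH replicate 4 (0.0274) or GH replicate 6, and was lost without each of the other 9 (highest 0.0807). The adjusted p ran from 7.24e-05 to 0.129 over all alternatives.

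Mvd encodes mevalonate diphosphate decarboxylase, the step just before Idi1. It had the next largest log2 fold change of the arm, -1.08 ± 0.46 (SE, n = 6; adjusted p = 0.228), or -0.85 without GH replicate 6. Its values were 10.2, 17.6 and 26.5 CPM in PBS and 1.32, 8.73 and 16.2 CPM in GH (lowest, median, highest). Here PBS livers also differed widely, with a coefficient of variation of 36.4%, and 5 of 6 GH livers were below the lowest PBS liver. Hmgcs1, the cytosolic HMG-CoA synthase that commits carbon to the pathway, ran from 489.5 to 833 CPM in PBS (median 607) and from 126 to 579.8 CPM in GH (median 389). Its log2 fold change was -0.71 ± 0.32 (adjusted p = 0.254), or -0.53 without GH replicate 6, and 4 of 6 GH livers lay below the PBS range.

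The other 4 enzymes of the arm had overlapping groups. Acat2, the cytosolic thiolase that condenses acetyl-CoA, was at -0.32 ± 0.17 on the log2 scale (adjusted p = 0.326). The kinase genes Mvk and Pmvk stood at -0.12 and -0.32 (adjusted p = 0.759 and 0.567). Without GH replicate 6 Pmvk was at -0.16 and Mvk at 0.01, and its GH and PBS medians were both 23.1 CPM. Fdps, the farnesyl pyrophosphate synthase, was at -0.37 ± 0.31 (adjusted p = 0.573), or -0.18 without GH replicate 6. Fdps shares 1124 exonic bases on the same strand with Gm43738. The 7 enzymes of the arm thus ranged from -1.13 to -0.12.

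In the sterol arm, Hsd17b7 (chromosome 1, 169949535 to 169969241, minus strand) encodes the 3-ketosteroid reductase that acts during removal of the methyl groups at carbon 4. Its lowest, median and highest values were 77.3, 85.9 and 106 CPM in PBS and 26.9, 48.4 and 66.3 CPM in GH, and the groups did not overlap. It fell to 55.9% of PBS, a log2 fold change of -0.84 with an SE of 0.17 (n = 6 per group, edgeR adjusted p = 0.0158). Without GH replicate 6 the log2 fold change was -0.71 ± 0.11 (adjusted p = 0.00103). Leaving out any 1 of the 12 libraries kept the call (adjusted p up to 0.0412), as did DESeq2 (4.1e-05). The adjusted p ran from 4.1e-05 to 0.0772 over all alternatives.

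Cyp51, the lanosterol 14-demethylase, had 277, 324 and 385 CPM in PBS and 105, 231 and 292 CPM in GH. Of the GH livers 5 of 6 were below the lowest PBS liver. Its log2 fold change was -0.55 ± 0.19 (SE, n = 6; adjusted p = 0.125). It fell in the fit without GH replicate 6 (-0.41 ± 0.09, adjusted p = 0.0174) and in DESeq2 (adjusted p = 0.0327), and the adjusted p ran from 0.00446 to 0.287 over all alternatives. With the low library left out the difference was thus smaller and its SE less than with it.

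Sqle, the squalene epoxidase, a control point of the arm, had 81.2, 102 and 132 CPM in PBS and 11.8, 56.2 and 85.2 CPM in GH. Its log2 fold change was -0.90 ± 0.38 (SE, n = 6; adjusted p = 0.230), or -0.69 without GH replicate 6. Of its GH livers 5 of 6 lay below the PBS range. Fdft1, the squalene synthase that takes the first step of this arm, was at -0.60 ± 0.25 (adjusted p = 0.223), or -0.43 without GH replicate 6. Msmo1, the C4-methylsterol oxidase that opens the same demethylation, was at -0.61 ± 0.25 (adjusted p = 0.212), or -0.44 without GH replicate 6. For Msmo1, 5 of 6 GH livers were below the lowest PBS liver. None of these 3 genes passed in any alternative.

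Nsdhl, the sterol dehydrogenase that acts between Msmo1 and Hsd17b7, was at -0.42 ± 0.23 (adjusted p = 0.354), or -0.26 without GH replicate 6. The 3 enzymes of C4 demethylation thus had log2 fold changes of -0.61, -0.42 and -0.84, and the differences between them were not tested. Sc5d, the lathosterol desaturase and the sterol arm gene with the most counts, was at -0.37 ± 0.16 (adjusted p = 0.229). Lss, the lanosterol synthase that closes the rings, was at -0.30 ± 0.28 (adjusted p = 0.630), or -0.13 without GH replicate 6. Tm7sf2, a sterol C14 reductase that shares 532 exonic bases with Vps51, was at -0.29 ± 0.10 (adjusted p = 0.133).

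The remaining 2 enzymes of the arm are described together. Ebp, the sterol isomerase, had a log2 fold change of -0.21 ± 0.08 (SE, n = 6; adjusted p = 0.171), and its GH livers were close together, with a coefficient of variation of 5.73% against 12.9% in PBS. It was the only synthesis gene of the 18 for which GH replicate 6 (189 CPM) was not the lowest GH library. Dhcr7, the reductase of the final step from 7-dehydrocholesterol, was the 1 enzyme with a log2 fold change above 0, at 0.05 ± 0.11 (adjusted p = 0.855). With library totals as the only scaling it was at -0.01. Its PBS livers ran from 57.1 to 74.2 CPM and its GH livers from 46.6 to 77.5 CPM.

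Levels of the enzymes also varied from liver to liver within each group. The median over the 18 genes of log2 CPM relative to the PBS mean ran from -0.23 (PBS replicate 2) to 0.25 (PBS replicate 6) in PBS and from -1.71 (GH replicate 6) to -0.10 (GH replicate 4) in GH. GH replicates 3 and 4, at -0.12 and -0.10, were inside the PBS range, and GH replicates 1, 2 and 5, at -0.32, -0.56 and -0.60, were below it. GH replicate 6 stood at 30.7% of the PBS mean and was the lowest GH library for 17 of 18 enzymes, against 22.8% of all genes tested. In PBS, replicate 6 was the highest library for 15 of 18 enzymes, against 11.1% of all genes.

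Levels in GH replicate 6 were uneven along the pathway. Against the median of the other 5 GH livers, Mvd stood at 14.6%, Sqle at 19.7% and Fdps at 26.1%, whereas Tm7sf2 stood at 64.4%, Dhcr7 at 68.0% and Ebp at 95.1%. The same liver had 3056 CPM of Saa1, which encodes the acute phase protein serum amyloid A1, against 591 to 828 CPM in the other GH livers and 19.3 to 129 CPM in PBS. Saa1 has a near-identical copy, Saa2, so reads may be split between them. Saa2 stood at 3125 CPM in that liver, against 220.3 to 339 CPM in the other GH livers and 7.86 to 38.1 CPM in PBS. The sum of 6 hepatocyte markers was also lowest there, at 73468 CPM, against up to 98063 CPM in the other GH livers. Most of that sum was 1 gene, albumin (Alb), at 50203 CPM there and 60466 to 70012 CPM in the other GH livers. The part of these in the low enzyme values was not tested.

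**Figure D2:**
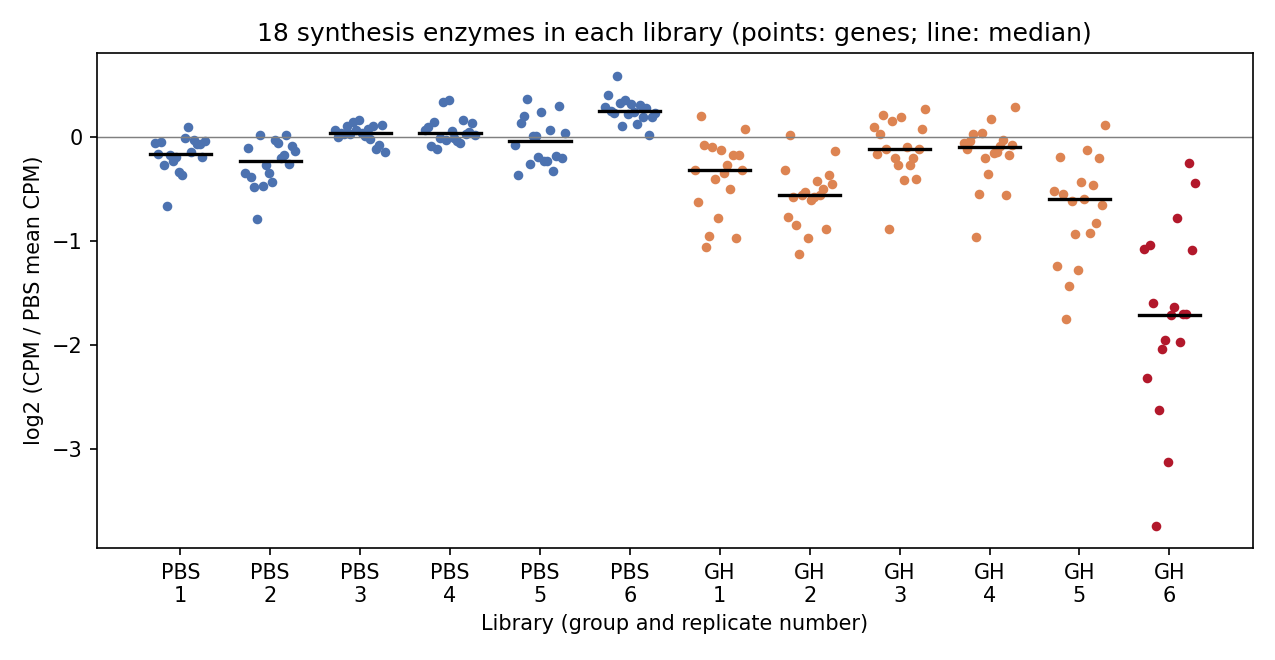
Each point is 1 of the 18 synthesis enzymes in 1 library, as log2 of its CPM over the PBS mean, and each line is the median of the 18. The medians run from -0.23 to 0.25 in PBS and from -1.71 to -0.10 in GH, with GH replicate 6 in red at the bottom.

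Promoter sequences of the members were searched for short runs of letters. SREBP2 binds sterol regulatory elements and acts with the factor NF-Y, which binds CCAAT boxes. RefSeq (GRCm38.p6) gave promoter windows of 300 bases, 250 before and 50 after a start site, for 24 of the 31 members, with no entry for Fdps, Fdft1, Sqle, Stard4, Npc1, Scarb1 or Soat2. Windows were searched on both strands for CCAAT and for the element TCACNCCAC. No match of one overlapped a match of the other in these genes. CCAAT stood in at least 1 window of 14 of the 15 enzymes with an entry, against 41.1% of all 27025 genes with one. The exception was Acat2. The box also stood in 3 of the 4 regulators and in 4 of the 5 genes of uptake, transport, storage and export with an entry. It was thus not particular to the enzymes. TCACNCCAC stood in 1 of the 15, Hmgcs1, against 1.44% of all genes. These are matches of letters and not shown to be bound. Other forms of the sterol element were not searched for, so a window without TCACNCCAC may still hold one.

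The windows of Idi1 (chr13:8885356-8885655, plus strand) and Hsd17b7 (chr1:169969156-169969455, minus strand) are shown because these genes fell. That of Hmgcs1 (chr13:119690101-119690400, plus strand) is shown because it alone, among members with a window, matched TCACNCCAC. All are written 5′ to 3′ on the gene's strand. Capitals mark CCAAT or its reverse complement ATTGG and, in Hmgcs1, TCACCCCAC at 137 bases before the start site.
Idi1: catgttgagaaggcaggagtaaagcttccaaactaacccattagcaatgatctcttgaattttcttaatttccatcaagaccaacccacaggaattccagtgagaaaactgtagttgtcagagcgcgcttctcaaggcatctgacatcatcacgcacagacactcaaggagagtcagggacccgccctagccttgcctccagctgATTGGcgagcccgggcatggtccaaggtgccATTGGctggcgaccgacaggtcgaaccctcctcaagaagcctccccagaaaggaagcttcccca
Hsd17b7: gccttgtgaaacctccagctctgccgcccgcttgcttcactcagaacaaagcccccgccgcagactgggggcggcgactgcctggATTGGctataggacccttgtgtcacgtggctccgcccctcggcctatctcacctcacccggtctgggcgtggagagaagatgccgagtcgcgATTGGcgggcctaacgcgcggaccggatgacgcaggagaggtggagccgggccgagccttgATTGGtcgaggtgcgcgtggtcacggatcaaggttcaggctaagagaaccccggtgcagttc
Hmgcs1: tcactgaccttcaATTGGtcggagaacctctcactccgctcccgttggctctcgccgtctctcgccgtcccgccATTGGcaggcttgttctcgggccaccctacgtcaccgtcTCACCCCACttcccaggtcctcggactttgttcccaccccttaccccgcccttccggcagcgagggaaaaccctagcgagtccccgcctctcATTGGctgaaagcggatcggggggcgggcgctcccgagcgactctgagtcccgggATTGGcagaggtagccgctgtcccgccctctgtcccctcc
Idi1 held 2 CCAAT boxes, 45 and 14 bases before the start site. Hsd17b7 held 3, at 165, 73 and 12 bases before it, and Hmgcs1 held 4. The number of boxes thus did not separate the genes that fell from Mvk, which held 5 and had a log2 fold change of -0.12.

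**Figure D3:**
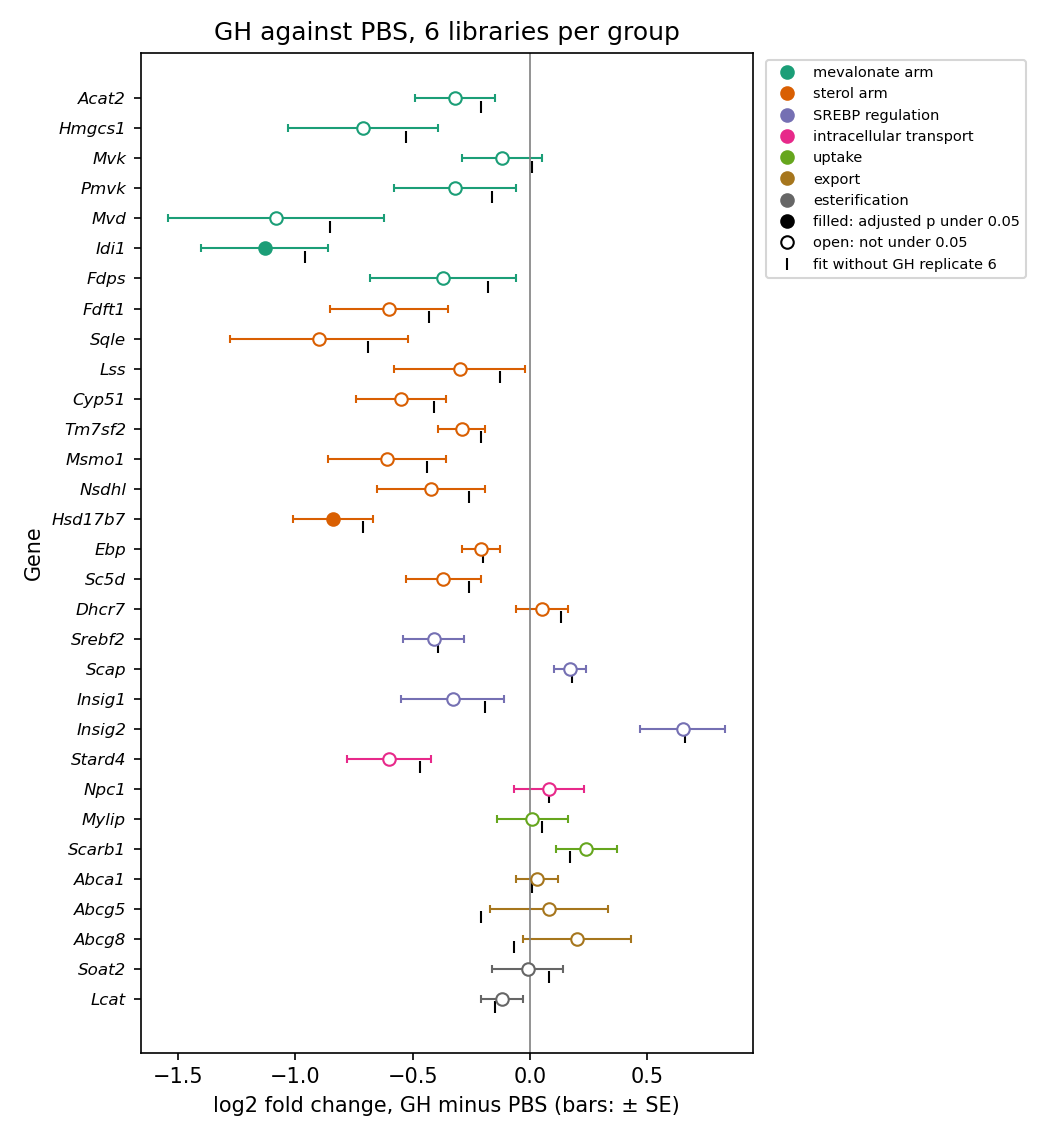
Log2 fold change of GH over PBS with its SE for the 31 genes, coloured by role and filled where the adjusted p is under 0.05, with a black tick for the fit without GH replicate 6. Enzymes run from -1.13 to 0.05, Insig2 is highest at 0.65, and Abcg5 and Abcg8 cross 0 when that library is left out.

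Of the 4 regulators 0 fell and 0 rose in edgeR, with 3 at an unadjusted p under 0.05 (Srebf2 lower, Insig2 and Scap higher), against 9.83% lower and 9.15% higher among all genes. DESeq2 called 2 (Srebf2 lower, Insig2 higher), against 3.76% and 3.45%. Srebf2 (chromosome 15, 82147181 to 82205379, plus strand), which encodes SREBP2 and is its own target, had 17.8, 25.9 and 31 CPM in PBS and 15.4, 19.6 and 21.2 CPM in GH. All 6 GH livers were below the PBS mean, and 1 (GH replicate 5) was below the lowest PBS liver. The log2 fold change was -0.41 ± 0.13 (SE, n = 6; adjusted p = 0.0810), with adjusted p from 0.0175 (without PBS replicate 4) to 0.199 over all alternatives. GH replicate 6, at 17.9 CPM, stood at 88.1% of the median of the other 5 GH livers, above GH replicate 5 and below the other 4.

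Insig2 (chromosome 1, 121304353 to 121332589, minus strand) encodes an anchor of SCAP whose main liver transcript is known to be repressed by insulin. Its values were 187, 354 and 487 CPM in PBS and 549, 569 and 599 CPM in GH (lowest, median, highest). All 6 GH livers were above the highest PBS liver, a separation upward that 1.45% of all genes showed. The log2 fold change was 0.65 ± 0.18 (SE, n = 6), and the adjusted p of 0.0523 did not pass. PBS livers varied far more than GH livers, with coefficients of variation of 30.2% and 3.80%. The call appeared without PBS replicate 3, 4 or 5 (adjusted p = 0.0367, 0.0275 and 0.00815), the last of which had the 187 CPM, and in DESeq2 (0.00484). Over all alternatives the adjusted p ran from 0.00484 to 0.158. Insig2 has 3 RefSeq start sites, and counts per gene cannot tell their transcripts apart.

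Insig1, the paralogue that SREBP2 itself induces, had 333, 478 and 603 CPM in PBS and 196, 389 and 544 CPM in GH, with a log2 fold change of -0.33 ± 0.22 (SE, n = 6; adjusted p = 0.464) and its lowest value in GH replicate 6, without which it was at -0.19. The difference between the 2 paralogues was not tested. Scap had 69.0, 85.2 and 93.0 CPM in PBS and 88.5, 94.2 and 101 CPM in GH. Its log2 fold change was 0.17 ± 0.07 (adjusted p = 0.175), and 3 of 6 GH livers were above the PBS range.

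Among the 9 genes of uptake, transport, storage and export 0 rose and 0 fell in edgeR, against 2.27% and 2.52% of all genes. Their median log2 fold change was 0.03. At an unadjusted p under 0.05 there was 1, Stard4 (lower), against 9.83% lower and 9.15% higher among all genes. DESeq2 called 1, the same gene, against 3.76% lower and 3.45% higher. These 9 genes are too few to set against those shares. Stard4, a cytosolic sterol carrier that SREBP2 induces, had 66.4, 82.2 and 94.7 CPM in PBS and 29.2, 53.9 and 71.7 CPM in GH, with 4 of 6 GH livers below the lowest PBS liver. The log2 fold change was -0.60 ± 0.18 (SE, n = 6; adjusted p = 0.0875). It fell without GH replicate 6 (-0.47 ± 0.12, adjusted p = 0.0301), and the adjusted p ran from 0.0127 to 0.209 over all alternatives. Npc1, which moves cholesterol out of lysosomes, was at 0.08 ± 0.15 (adjusted p = 0.824).

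The exporters gave no difference beyond their spread. Abca1, which loads cholesterol onto apolipoprotein A-I, ran from 250.3 to 369 CPM in PBS and from 269 to 359.5 CPM in GH, with a log2 fold change of 0.03 ± 0.09 (SE, n = 6; adjusted p = 0.897). With library totals as the only scaling it was at -0.02.

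Abcg5 and Abcg8 encode the partners of the heterodimer that secretes sterols into bile. Abcg5 had 93.5, 112 and 164 CPM in PBS and 82.4, 104 and 232 CPM in GH. Abcg8 had 111, 147 and 194 CPM in PBS and 116, 143 and 309 CPM in GH. For both, GH replicate 6 was the highest of the 12 libraries and PBS replicate 5 the next. Their log2 fold changes were 0.08 ± 0.25 and 0.20 ± 0.23 (adjusted p = 0.912 and 0.714), and without GH replicate 6 they were -0.21 and -0.07 (adjusted p = 0.412 and 0.824). In that liver Abcg5 stood at 2.32 and Abcg8 at 2.25 times the median of the other 5 GH livers, and it was the liver in which 17 of the 18 enzymes were lowest among GH. Over all alternatives the adjusted p ran from 0.412 to 0.989 for Abcg5 and from 0.558 to 0.932 for Abcg8.

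The pair lies on chromosome 17, Abcg5 on the minus strand from 84658234 to 84683011 and Abcg8 on the plus strand from 84676302 to 84700333, so that the annotated genes overlap on opposite strands. RefSeq gives Abcg5 the start site 84683011 and Abcg8 both 84683121 and 84676302. The first of these is 110 bases from the Abcg5 start, with promoter windows that share 209 bases, and the other lies inside Abcg5, 6709 bases away, with 0 shared. The Abcg8 window at 84683121 (chr17:84682871-84683170, plus strand) is shown since it also covers the Abcg5 start. Capitals mark CCAAT, of which the box at 114 bases before this Abcg8 start is the same as that at the start of Abcg5 read on the other strand.
Abcg8: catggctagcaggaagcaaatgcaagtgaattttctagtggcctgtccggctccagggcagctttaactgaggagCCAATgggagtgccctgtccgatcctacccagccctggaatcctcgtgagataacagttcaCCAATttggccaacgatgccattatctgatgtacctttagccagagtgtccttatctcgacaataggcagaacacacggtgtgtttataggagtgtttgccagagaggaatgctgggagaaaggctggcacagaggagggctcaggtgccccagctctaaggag
No TCACNCCAC stood in the windows of either gene.

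**Figure D4:**
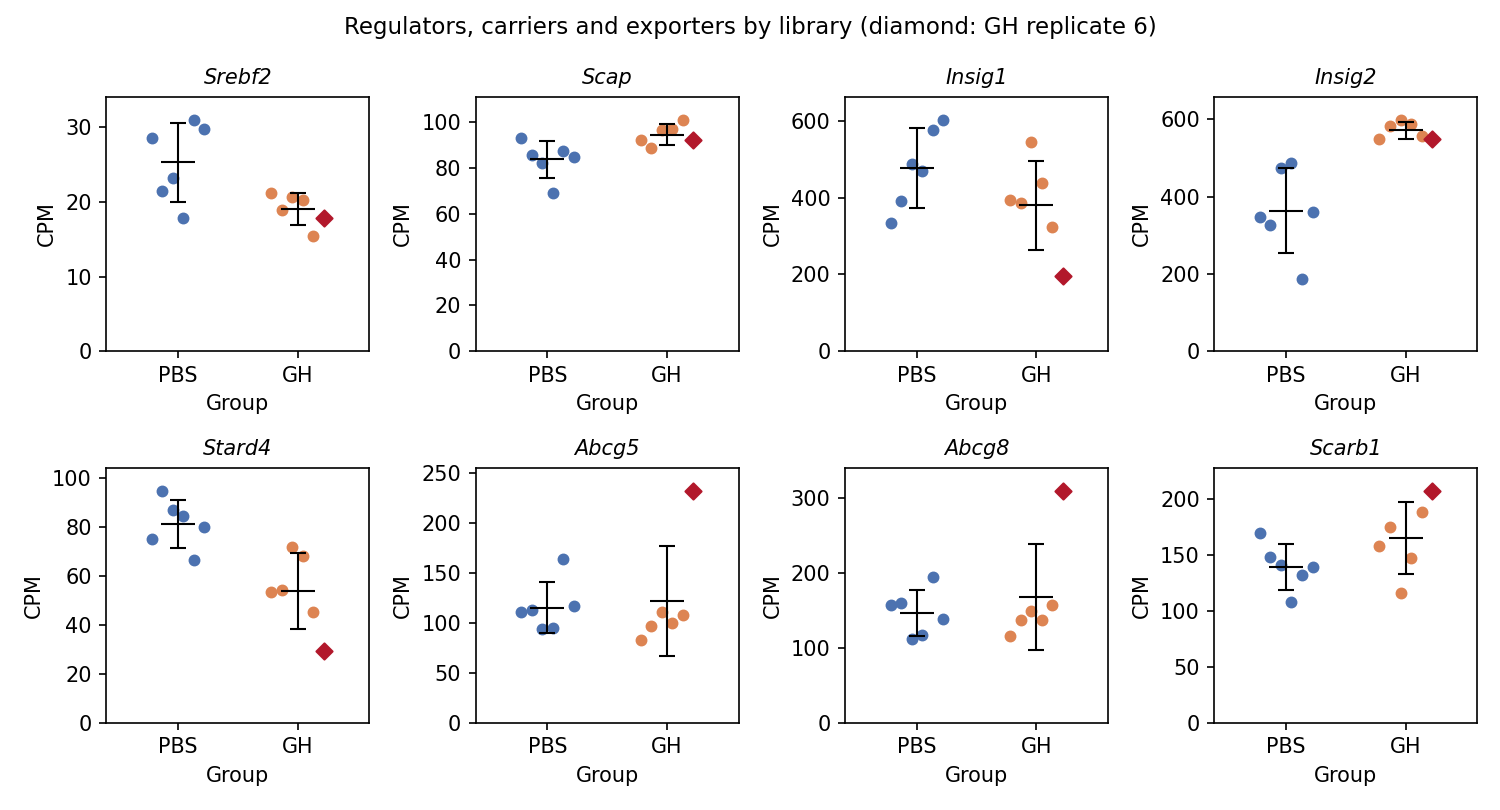
CPM of 8 genes in each library, from 0, with PBS in blue, GH in orange, GH replicate 6 as a red diamond, and the mean and SD of 6 libraries in black. Insig2 values of GH lie above all PBS values, and GH replicate 6 is the highest library for Abcg5 and Abcg8 and the lowest for Insig1 and Stard4.

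For uptake, Scarb1, the receptor that takes cholesterol esters from high density lipoprotein, had 108, 139.6 and 169.6 CPM in PBS and 116, 167 and 207 CPM in GH. Its log2 fold change was 0.24 ± 0.13 (SE, n = 6; adjusted p = 0.326), 3 of 6 GH livers were above the PBS range, and GH replicate 6 was the highest. Mylip, an LXR-induced ubiquitin ligase that degrades lipoprotein receptors, was at 0.01 ± 0.15 (adjusted p = 0.990), and at -0.06 with library totals as the only scaling. For storage, Soat2, which esterifies cholesterol in hepatocytes, was at -0.01 ± 0.15 (adjusted p = 0.984), and Lcat, the plasma enzyme that esterifies it on lipoproteins, at -0.12 ± 0.09 (adjusted p = 0.489). Soat2 in GH replicate 6 was 15.9 CPM, below the 24.2 to 27.7 CPM of the other GH livers. The groups overlapped for each of these 4 genes.

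Per length, levels differed widely between members. In PBS, Lcat had the highest mean CPM per kilobase of exon (236), followed by Insig1 (154), Hmgcs1 and Sc5d (137 each) and Insig2 (105). The lowest were Srebf2 (3.52), Mylip (5.78), Mvk (8.66) and Mvd (9.47). Lengths are the union of all annotated exons, which lowers genes with many transcript forms such as Lss, whose union is 10.787 kb.

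Of 46 other genes of sterol handling, 45 were tested, 1 rose and 2 fell, against 2.27% and 2.52% of all genes. Of 12 genes of sterol transport and storage 1 fell, Nceh1, a hydrolase of cholesterol esters, from 14.1 ± 2.56 to 8.56 ± 0.863 CPM (SD, n = 6). Its groups did not overlap, its log2 fold change was -0.72 ± 0.12 (SE; adjusted p = 0.00198), and the call held whichever of the 12 libraries was left out. Of 5 tested genes of conversion to bile acids and oxysterols 1 rose and 1 fell. Cyp7a1, the rate-limiting step of the classical bile acid route, fell from 29.0 ± 14.7 to 8.29 ± 3.87 CPM (adjusted p = 0.0446), with a call that, of 12 fits with 1 library left out, held only without PBS replicate 1 (0.0397) or 2 (0.0346). The adjusted p ran from 0.00141 to 0.140 over all alternatives. Cyp7b1, an oxysterol hydroxylase, rose from 206 ± 73.5 to 655 ± 99.1 CPM (adjusted p = 0.000935).

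The lists nearest to the transcription factors gave no call in edgeR, against 2.52% lower and 2.27% higher among all genes. Of 6 SREBP targets outside sterol synthesis 0 passed, all 6 were below 0 and the median log2 fold change was -0.36. Of 7 further genes of SREBP cleavage and INSIG turnover 0 passed, with a median of 0.06, and of 6 genes of LXR and its other targets 0 passed, with a median of 0.01. At an unadjusted p under 0.05 these lists held 3, 3 and 0 genes, against 9.83% lower and 9.15% higher among all genes. DESeq2 called 2, 1 and 0, against 3.76% lower and 3.45% higher. Of 9 genes of the isoprenoid branches, which draw on farnesyl pyrophosphate for ubiquinone, dolichol and protein prenylation, 0 passed (0 at an unadjusted p under 0.05 and 0 in DESeq2), with a median of 0.03.

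Hepatocyte markers were abundant in every library, with sums over 6 genes of 92416 to 110467 CPM in PBS and 73468 to 98063 CPM in GH. Of the 6, 0 passed in edgeR. At an unadjusted p under 0.05 there were 3 (Alb and Cps1 lower, Apoa1 higher), against 9.83% lower and 9.15% higher among all genes. DESeq2 called 2 lower (Alb and Cps1), against 3.76% of all genes. Of 7 markers of Kupffer cells and macrophages 0 passed (0 at an unadjusted p under 0.05 and 0 in DESeq2, and in that order below). Their sums were 223 to 336 CPM in PBS and 231 to 296 CPM in GH. Of 6 markers of sinusoidal endothelium 0 passed (1 and 0), with sums of 411 to 620.5 CPM in PBS and 480.2 to 594 CPM in GH. Without GH replicate 6, 2 of these passed: Lyve1, at 24.3 CPM in that liver and 7.05 to 10.6 CPM in the other GH livers, went from -0.37 to -0.75 (adjusted p = 0.522 and 0.00155), and Stab2 from 0.28 to 0.34 (0.111 and 0.0387). Over all alternatives the adjusted p ran from 0.00155 to 0.689 for Lyve1 and from 0.0229 to 0.217 for Stab2. Of 6 markers of stellate cells and fibroblasts 1 fell (Dcn), with sums of 355 to 411 CPM in PBS and 325 to 392 CPM in GH. Dcn was also called in DESeq2 (adjusted p = 8.82e-07). Col1a1 went the other way, with a log2 fold change of 0.45 (edgeR unadjusted p = 0.0463). It was not called in DESeq2 (adjusted p = 0.225). The 5 cholangiocyte markers summed to 32.4 to 55.6 CPM in PBS and 33.7 to 51.5 CPM in GH, and 0 passed (1 and 1). Of 3 red cell markers 1 rose, Alas2, while the sums overlapped (75.7 to 321 CPM in PBS, 192 to 379.7 CPM in GH). Of 5 lymphocyte markers, with sums of 13.5 to 21.7 CPM in PBS and 13.1 to 16.5 CPM in GH, 4 were under 1 CPM, and those of adipocytes and exocrine pancreas summed to under 1 CPM.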

How the data were processed

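Total RNA (250 ng per library) was depleted of ribosomal RNA and turned into stranded libraries, per the labels' protocols. The submitters' processing notes list STAR 2.4.0i and mm10. The authors' deposited table gives raw exon counts, 1 column per sample. How reads were counted (program, annotation, strand, reads that match more than 1 place) is not given in those sources.

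The counts were fitted with edgeR 4.0.16 (R 4.3.3): filterByExpr with a minimum count of 10, TMM scaling, and a robust quasi-likelihood model of treatment. Its two-sided p-values were adjusted by Benjamini-Hochberg across the 14235 genes kept, with a threshold of 0.05. The code was tested on simulated counts with known changes. An SE is the absolute log2 fold change over the root of F. Alternatives were DESeq2 1.42.0, other scalings, no filter, a replicate block, and libraries left out. Coordinates and exon lengths are from GENCODE M21 (mm10, 36308 identifiers matched) and promoters from RefSeq (GRCm38.p6). All 31 members are named, and of the other lists the genes that passed. Members and lists were chosen with earlier results of these data known.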

Additional observations from a re-analysis of the deposited data

Results flagged for a closer look

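Over the 31 genes and both groups, 62 sets of 6 libraries were searched for a library far from the rest, where chance alone gives about 1 in 20, and 4 had one. In GH replicate 6, Abcg5 stood at 232 CPM against 82.4 to 111 CPM in the other GH livers, and Abcg8 at 309 CPM against 116 to 157 CPM. Soat2 in the same liver stood at 15.9 CPM against 24.2 to 27.7 CPM. In PBS replicate 5, Abcg5 stood at 164 CPM against 93.5 to 117 CPM in the other PBS livers. The 3 flags of GH replicate 6 come from 1 liver.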

How the results depend on the processing

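Of 14235 genes 682 passed in edgeR, 1057 in DESeq2, 1022 without GH replicate 6 and PBS replicate 5, 391 with the replicate number as a block and 434 to 854 with 1 library left out. Of the 31 members 2 passed, against 6 in DESeq2, 6 without GH replicate 6 and PBS replicate 5, 1 with no filter on low counts, 1 with the block and 1 to 4 with 1 library left out. For the 18 enzymes the count was 2, against 4 without both libraries, 1 with no filter, 0 with the block and 1 to 3 with 1 library left out. For the 9 genes of uptake, transport, storage and export it was 0, against 1 in DESeq2, 1 without both libraries and 0 to 1 with 1 left out. For the 46 other genes it was 3, against 6 in DESeq2 and 6 with scaling by totals alone. That scaling moved the median of all genes by -0.06 and the share of calls that were higher from 47.4% to 24.3%. Among members, signs turned for Mvk, Dhcr7, Mylip, Abca1, Abcg5, Abcg8 and Soat2. Without both libraries Mvk was 0.03, while Dhcr7 stayed above 0 at 0.14. Dhcr7 was -0.01, Mylip -0.06 and Abca1 -0.02 with totals alone, Mylip -0.06 and Abcg5 -0.09 without both, and Soat2 0.00 with the block. With 1 library left out the log2 fold change ran from -0.19 to 0.01 for Mvk, 0.00 to 0.13 for Dhcr7, -0.11 to 0.07 for Mylip, -0.02 to 0.09 for Abca1, -0.21 to 0.20 for Abcg5, -0.07 to 0.29 for Abcg8 and -0.10 to 0.08 for Soat2. The cause was not tested. Same-numbered GH and PBS libraries had correlations of their deviations from -0.166 to 0.152 over 6 pairs, and 1 of 6 correlated best with its own number. This check gave no sign of pairing by number, but it cannot exclude a shared batch or day, on which the labels are silent. With the block the adjusted p was 0.129 for Idi1, 0.0772 for Hsd17b7 and 0.0468 for Insig2.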
